A study of Mus musculus with 7 samples.

Results

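The 36 genes described here encode molecular chaperones, folding enzymes of the endoplasmic reticulum (ER), and the sensors and transcription factors of the unfolded protein response (UPR). They were taken by symbol from a table of 55228 gene rows, and all 36 were found and passed the low-count filter. By compartment they were 11 cytosolic heat shock genes, 2 mitochondrial chaperonin genes, 16 ER chaperone and folding genes, and 7 UPR sensors and factors. RNA had been sequenced from primary granulosa cells, the somatic cells that surround and support the oocyte, taken from ovaries of C57BL/6J mice. The 4 wild-type libraries (WT) and the 3 libraries from mice labelled Fhl2 knockout (KO) were untreated and shared the strain and tissue. FHL2 is a LIM-domain adaptor protein that binds transcription factors and signalling proteins. The sources used here do not give the age of the mice, the design of the Fhl2 deletion or any pooling of animals. Nor do they state that libraries with the same genotype had separate animals or cultures behind them, so the p-values speak only for the spread among these 7 samples, part of which may be technical.

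Chaperones bind unfolded protein and, with ATP and co-chaperones, let it fold or hand it on for degradation. In the cytosol their genes are driven by heat shock factors such as HSF1. In the ER, unfolded protein is sensed by IRE1 (Ern1), PERK (Eif2ak3) and ATF6 (Atf6): IRE1 splices the Xbp1 mRNA, PERK phosphorylates eIF2α and so favours translation of Atf4, and ATF6 is cleaved to a transcription factor. XBP1 and ATF6 raise ER chaperones and degradation factors, whereas ATF4 raises amino acid genes and Ddit3, which encodes CHOP. Cells that secrete much matrix or hormone, granulosa cells among them, depend on these folding enzymes. Gene counts do not report splicing of Xbp1, phosphorylation or cleavage.

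Library totals ran from 38855596 to 50514556 counts, so that 3 counts, taken as the floor, equalled 0.0594 to 0.0772 CPM, the count scaled to a common library total. Levels below are CPM adjusted by the trimmed mean of M values (TMM), and fold changes are KO over WT on the log2 scale with a standard error (SE). Fhl2 itself was 107.7 ± 5.63 CPM (SD, n = 4) in WT and 58.3 ± 9.57 CPM (SD, n = 3) in KO, so reads assigned to the gene were reduced but still present. Of the granulosa markers, Inha stood at 1042 CPM and Foxl2 at 70.1 CPM in WT, while Fshr was at 5.40 CPM, Amh at 1.87 CPM, and Cyp19a1 had no counts in any of the 4 WT libraries. The libraries differed in how CPM depended on transcript length. Slopes were fitted to each gene's log2 CPM less its mean over the 7 libraries, so they place each library against that average only. Per doubling of length they were 0.0581 to 0.0856 log2 units in WT. They were -0.00167, -0.17 and -0.13 in KO libraries 1, 2 and 3. Each fold change was therefore also computed with length and GC content corrected for, and with KO library 1 alone against WT.

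Of the 36 members, 12 were lower and 3 higher in KO past an adjusted p of 0.05 in edgeR's quasi-likelihood test, and 21 did not pass. None changed by 2-fold or more. The 15 called make up 41.7% of the members, against 29.0% of all 15798 genes tested (13.5% higher and 15.6% lower). Most members are abundant, with 26 of the 36 averaging at least 50 CPM, and among the 4193 genes at that level 42.5% were called, 19.0% higher and 23.5% lower. The share of members that changed was thus near that of genes at this level, which not all of the 36 members reach. By direction, 33.3% of members were lower and 8.33% higher. The median log2 fold change was -0.14 over the members, 0.00 over all genes tested and -0.03 over the abundant genes. KO and WT libraries did not overlap for 24 members, in 8 with KO above and in 16 with KO below. The share of all genes without overlap was 34.2% (16.4% above and 17.7% below), and that of the abundant genes 47.1% (21.4% above and 25.7% below).

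**Figure D1:**
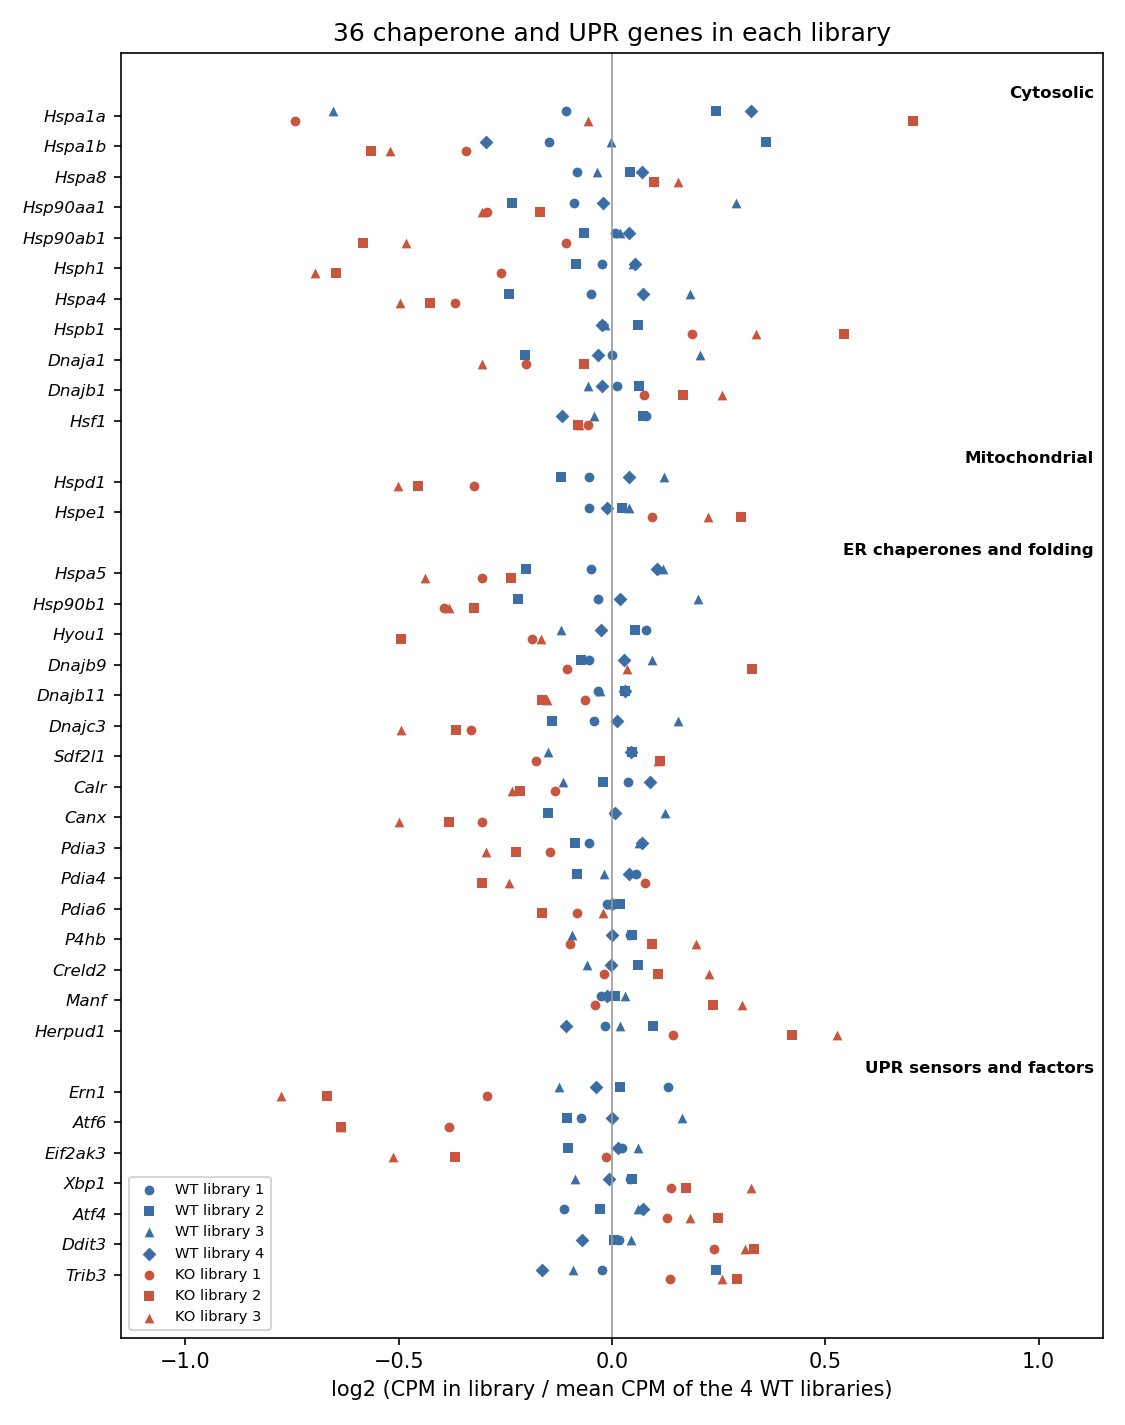
Level of each of the 36 genes in each of the 7 libraries, as the log2 ratio of its CPM to the mean of the 4 WT libraries, grouped by compartment; blue symbols are WT and red symbols KO, and shape marks the library number. The KO symbols lie wholly left of the WT symbols for 16 genes, among them Hspd1, Canx, Ern1 and Atf6, and wholly right for 8, among them Ddit3, Herpud1 and Xbp1.

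After the length and GC correction 13 of the 36 members were called, all of them lower, beside 23.6% of all genes with a length (12.3% higher and 11.4% lower). Of the 4193 genes of at least 50 CPM, 788 were then higher and 729 lower. The share of members called was thus again near that of abundant genes, and the members differed in direction. With length alone corrected 10 were called, beside 20.3% of all genes. Of the 12 members lower without the correction, 9 kept the call: Hspa1b, Hsp90ab1, Hsph1, Hspa4, Hspd1, Hspa5, Hsp90b1, Canx and Ern1. None of the 3 higher members kept it. With KO library 1 alone, 1 member was called (Atf6), beside 4.60% of all genes. Leaving out KO library 1 raised the number of members called from 15 to 24, beside 41.6% of all genes. Leaving out KO library 3 lowered it to 7, beside 10.2% of all genes. In every fit that left out 1 of the 7 libraries, 7 members stayed called: Hsph1, Hspa4, Hspd1, Dnajc3, Canx, Ern1 and Atf6.

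**Figure D2:**
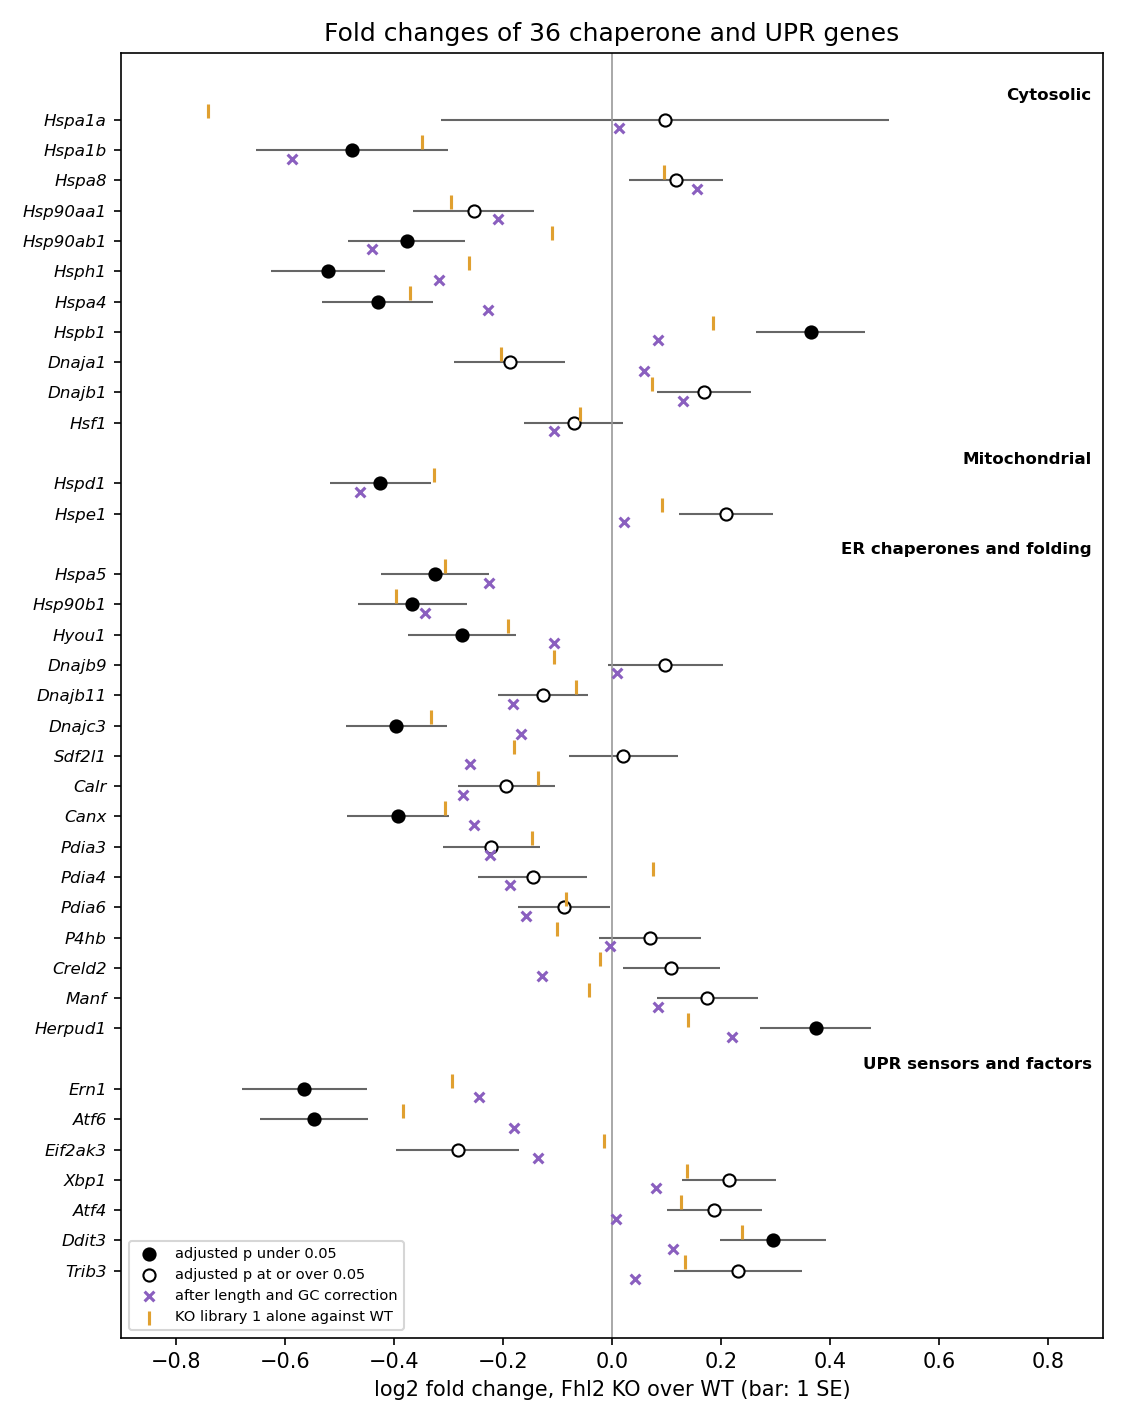
Log2 fold change of each of the 36 genes, KO over WT, with bars of 1 SE; filled circles passed an adjusted p of 0.05, open circles did not, crosses give the value after the length and GC correction and ticks the value of KO library 1 alone against WT. The 12 filled circles left of 0 run from -0.56 for Ern1 to -0.28 for Hyou1, and the 3 right of 0 are Herpud1, Hspb1 and Ddit3, whose crosses lie nearer 0.

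The promoters of ER chaperone genes are known for the ER stress element, a site for ATF6 together with NF-Y, and its letters, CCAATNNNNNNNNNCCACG, were searched on both strands of RefSeq promoters (250 bases before to 50 after each start, build GRCm38.p6, the mm10 assembly). Promoters were found for 29 of the 36 members. Hspa8, Hsp90aa1, Hsp90ab1, Hsf1, Hyou1, Manf and Atf6 had no entry. The element occurred in 0.119% of all 32851 promoters and in those of 7 members, all of them among the 14 ER members with a promoter. It is shown here because its carriers include 4 of the 5 ER members that fell. Capitals mark the match, which reads CCAAT to CCACG or, on the other strand, CGTGG to ATTGG, and each window is printed 5′ to 3′ along the strand of the gene; all but that of Hspa5 lie outside annotated exons, and for Hspa5 the match alone is printed. A match is a description of the letters and not evidence of binding.
Hspa5, chr2:34772025-34772043, plus strand: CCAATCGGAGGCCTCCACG
Hsp90b1, chr10:86705513-86705676, minus strand: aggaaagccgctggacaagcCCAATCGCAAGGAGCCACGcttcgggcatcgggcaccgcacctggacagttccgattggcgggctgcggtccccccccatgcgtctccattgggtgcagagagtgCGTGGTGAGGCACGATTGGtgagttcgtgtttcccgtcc
Canx, chr11:50325780-50325838, minus strand: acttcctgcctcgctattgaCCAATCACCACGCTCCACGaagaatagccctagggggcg
Dnajc3, chr14:118937807-118937865, plus strand: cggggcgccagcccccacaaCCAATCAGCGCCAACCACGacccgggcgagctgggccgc
Calr, chr8:84847055-84847113, minus strand: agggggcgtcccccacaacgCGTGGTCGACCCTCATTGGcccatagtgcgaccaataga
Pdia6, chr12:17266471-17266529, plus strand: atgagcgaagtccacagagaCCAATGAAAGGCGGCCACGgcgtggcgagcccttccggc
Creld2, chr15:88819500-88819558, plus strand: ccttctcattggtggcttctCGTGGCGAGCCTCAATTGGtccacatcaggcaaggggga

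Among these 7 carriers 4 fell and none rose, with a median log2 fold change of -0.32. Among the 7 other ER members with a promoter none fell and 1 rose, with a median of 0.02. After the length and GC correction 4 carriers (Hspa5, Hsp90b1, Canx and Calr) and 3 of the others (Dnajb11, Sdf2l1 and Pdia3) were lower and none was higher, and the medians were -0.23 and -0.18. No test was made of this split, which is shown with the fold changes known. Hyou1, an ER member that also fell, had no promoter entry and is in neither group. The UPR element, TGACGTGG, was searched as well and matched no member promoter.

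The ER members span the lumenal Hsp70 and Hsp90 machines, the lectin chaperones, the protein disulfide isomerases and a set of smaller stress-responsive proteins. Of the 16, 5 fell, 1 rose and 10 did not pass, with a median log2 fold change of -0.14. The share called, 37.5%, lay between that of all genes (29.0%) and that of genes of at least 50 CPM (42.5%). In 10 of the 16 (62.5%) the KO and WT libraries did not overlap, 9 with KO below, beside 34.2% of all genes and 47.1% of the abundant ones. The number called rose from 6 to 10 without KO library 1 and fell to 2 without KO library 3 and 3 without WT library 3. The shares of all genes called in these fits were 41.6%, 10.2% and 19.2%. Hspa5, on chr2:34771970-34777547, encodes BiP, the ER Hsp70 that binds nascent chains and holds the UPR sensors inactive. It measured 1377, 1239, 1548 and 1531 CPM in the 4 WT libraries and 1153, 1208 and 1050 CPM in the 3 KO libraries. All KO libraries lay below all WT libraries, although WT library 2 and KO library 2 were close. The log2 fold change was -0.32 (SE 0.099, edgeR adjusted p = 0.0217), and -0.23 after the length and GC correction. Without WT library 1, 3 or 4 or without KO library 3 it did not pass (edgeR adjusted p between 0.0566 and 0.119). Hsp90b1, on chr10:86690209-86705509, encodes GRP94, the ER Hsp90 that folds integrins and secreted growth factors. Its WT libraries held 771.2, 677.4, 906.5 and 799.1 CPM and its KO libraries 599.8, 630.4 and 605.0 CPM, without overlap. The log2 fold change was -0.37 (SE 0.0996, edgeR adjusted p = 0.0126), and -0.34 after the correction; the adjusted p was 0.0524 without WT library 3 and 0.0619 without KO library 3 in edgeR.

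Of 5 genes for partners of BiP, Dnajc3 and Hyou1 fell and the others did not pass. Dnajc3 encodes P58IPK, an ER J-domain protein that delivers clients to BiP, and it fell from 100.5, 93.96, 115.2 and 104.4 CPM in WT to 82.35, 80.3 and 73.42 CPM in KO. Its log2 fold change of -0.40 (SE 0.0932, edgeR adjusted p = 0.00588) moved to -0.17 after the correction, with an adjusted p of 0.0646 in edgeR. Hyou1 encodes GRP170, a nucleotide exchange factor of BiP, and had 557.4, 547.5, 485.3 and 518.1 CPM in WT against 462.6, 374.1 and 469.9 CPM in KO. The groups did not overlap, yet its log2 change of -0.28 (edgeR adjusted p = 0.0442) lost the call in 6 of the 7 fits that left out a library, with adjusted p between 0.0541 and 0.259 in edgeR, and with the correction (-0.11). Among those fits it kept the call without KO library 1. It also lost it with median-of-ratios size factors (edgeR adjusted p = 0.0518) and library totals alone (edgeR adjusted p = 0.0714). Dnajb11, another J-domain partner of BiP, was 270.4 ± 6.57 CPM (SD, n = 4) in WT and 247.8 ± 9.43 CPM (SD, n = 3) in KO, with a log2 fold change of -0.13 that did not pass; after the correction it did, at -0.18 (edgeR adjusted p = 0.0415). Dnajb9 and Sdf2l1, which act with BiP on misfolded clients, gave log2 fold changes of 0.10 and 0.02, and neither passed; both turned negative without KO library 2, at -0.02 each. Sdf2l1 was also -0.03 without WT library 3 or KO library 3, and -0.26 after the correction (edgeR adjusted p = 0.0186).

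The 2 lectin chaperones retain glycoproteins bearing trimmed sugars in a folding cycle. Canx, the membrane-bound calnexin on chr11:50293961-50325673, measured 893.4, 802.6, 970.2 and 894.4 CPM in WT and 720.7, 682.5 and 630.2 CPM in KO. The groups were well separated, with a log2 fold change of -0.39 (SE 0.0935, edgeR adjusted p = 0.00615) and -0.25 after the correction. Calr, its soluble counterpart calreticulin, was the most abundant member per transcript length, at 3182 CPM per kilobase in WT. Its libraries held 7136, 6853, 6414 and 7397 CPM in WT and 6333, 5985 and 5911 CPM in KO. These did not overlap, but the log2 fold change of -0.19 (SE 0.089, edgeR adjusted p = 0.11) did not pass; after the correction it was -0.27 with an adjusted p of 0.0141 in edgeR, and without KO library 1 the adjusted p was 0.029.

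Disulfide isomerases form and shuffle the disulfide bonds of secreted proteins, and none of the 4 measured was called. Pdia3, the partner of both lectins, was 785.3 ± 43.5 CPM (SD, n = 4) in WT and 673.7 ± 35.3 CPM (SD, n = 3) in KO, with KO below WT in all libraries. Its log2 fold change was -0.22 (edgeR adjusted p = 0.0685), and -0.22 after the correction as well, where it passed (edgeR adjusted p = 0.0211). Pdia4 and Pdia6 gave log2 fold changes of -0.15 and -0.09. Without KO library 1 Pdia4 was -0.25 and passed (edgeR adjusted p = 0.00793), and in KO library 1 alone it was 0.08. P4hb, a disulfide isomerase that is also the β subunit of collagen prolyl 4-hydroxylase, was 1799 ± 81.1 CPM (SD, n = 4) in WT and 1887 ± 193 CPM (SD, n = 3) in KO. Its log2 value of 0.07 went to 0 or slightly below without KO library 3 and with the correction. The enzyme's α subunits belong to the list of collagen folding genes given with the collagens.

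Herpud1, on chr8:94386438-94395377, was the ER member that rose. It encodes an ER membrane protein of ER-associated degradation. Its WT libraries held 43.92, 47.55, 45.06 and 41.27 CPM and its KO libraries 49.07, 59.57 and 64.09 CPM. All KO libraries were higher, KO library 1 by the least. The log2 fold change was 0.37 (SE 0.101, edgeR adjusted p = 0.0124); it was 0.22 after the correction with an adjusted p of 0.053 in edgeR, and without KO library 3 the adjusted p was 0.0969. Its promoter was 1 of 2 among the members with the ATF4-C/EBP composite letters, TGATGNAA, a sequence held by 3.97% of all promoters; the other was Trib3. The window is shown because Herpud1 moved against most of its group, with the match in capitals on the opposite strand to the motif as spelled.
Herpud1, chr8:94386297-94386344, plus strand: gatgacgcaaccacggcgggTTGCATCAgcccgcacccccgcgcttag

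Creld2 and Manf, secreted or lumenal proteins induced by ER stress, gave log2 fold changes of 0.11 and 0.17 without passing. In KO library 1 alone both were slightly negative, at -0.02 and -0.04, and Creld2 was -0.13 after the correction. Without KO library 1 Manf was 0.29 and passed (edgeR adjusted p = 0.00249). Reads of Manf overlap those of Dcaf1 and Rbm15b in the annotation, so its value carries that uncertainty.

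**Figure D3:**
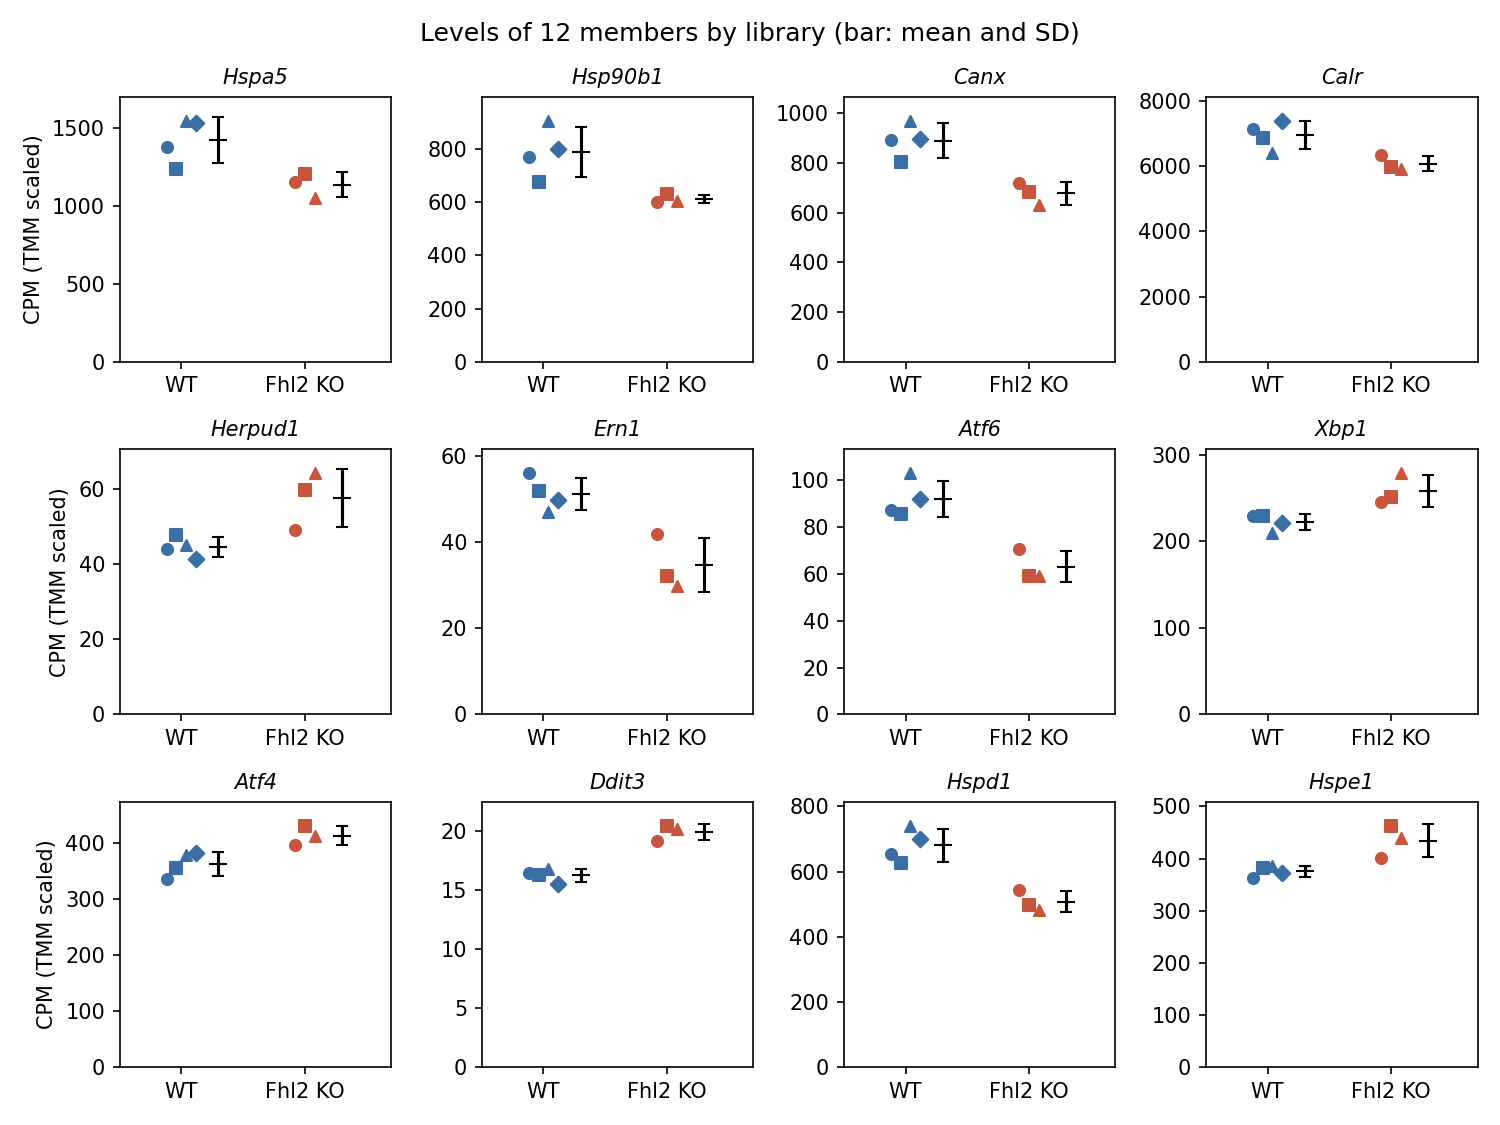
CPM of 12 members in each library, with a bar for the mean and SD of each group; WT is blue (n = 4), KO is red (n = 3), shapes mark library numbers, and every axis starts at 0. Hspa5, Hsp90b1, Canx, Calr, Ern1, Atf6 and Hspd1 have all KO libraries below WT, and Herpud1, Xbp1, Atf4, Ddit3 and Hspe1 have all KO libraries above.

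Of the 7 UPR sensors and factors, 2 sensors fell, 1 factor rose and 4 did not pass, and the median log2 fold change was 0.19. The share called was 42.9%, beside 29.0% of all genes and 42.5% of those of at least 50 CPM, a level that only 3 of the 7 reach. Without KO library 1, 6 were called, beside 41.6% of all genes. Ern1, on chr11:106394650-106487852, encodes the IRE1α kinase and nuclease, and measured 56.0, 51.81, 46.94 and 49.88 CPM in WT and 41.76, 32.18 and 29.89 CPM in KO. Atf6, on chr1:170704674-170867771, measured 87.41, 85.46, 103.0 and 92.02 CPM in WT and 70.63, 59.17 and 59.2 CPM in KO. For both sensors every KO library lay below every WT library, and KO library 1 was the nearest to WT. Ern1 fell by 0.56 (SE 0.114, edgeR adjusted p = 0.00243) and Atf6 by 0.55 (SE 0.0989, edgeR adjusted p = 0.00118) on the log2 scale. Before the correction these were the largest falls among the 36 members, and after it Hspa1b (-0.59), Hspd1 (-0.46) and Hsp90ab1 (-0.44) were lowest. The corrected values were -0.24 for Ern1 (edgeR adjusted p = 0.048) and -0.18 for Atf6 (edgeR adjusted p = 0.0607). Their longest annotated transcripts, at 6946 and 7246 bases, are the longest of the members. Eif2ak3, the gene of PERK, was 40.18, 36.8, 41.28 and 39.94 CPM in WT and 39.19, 30.63 and 27.72 CPM in KO. KO library 1 lay within the WT range, and the log2 fold change of -0.28 did not pass (edgeR adjusted p = 0.0658), although it did without KO library 1 (0.00105).

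Among the factors downstream of the sensors 1 passed. Ddit3, on chr10:127290774-127296288, encodes the pro-apoptotic factor CHOP and measured 16.41, 16.29, 16.74 and 15.45 CPM in WT and 19.16, 20.43 and 20.13 CPM in KO. All KO libraries were above all WT libraries, and the log2 fold change was 0.30 (SE 0.0973, edgeR adjusted p = 0.0308). The call was lost in 5 of the 7 fits that left out a library, that is without WT library 1, 3 or 4 and without KO library 2 or 3. The adjusted p in edgeR was then 0.0509 to 0.0989, and the corrected value was 0.11. Ddit3 also overlaps Mars on the opposite strand, which had 72579 counts in all against 5540 for Ddit3, so reads of the 2 may not be told apart without a stated strand setting. Mars itself had a log2 fold change of 0.12 that did not pass.

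Xbp1, the target of IRE1 splicing, had 229.0, 229.5, 209.3 and 221.3 CPM in WT and 244.8, 250.6 and 278.6 CPM in KO. Atf4, the factor translated under PERK signalling, had 336.0, 356.0, 378.9 and 381.8 CPM in WT and 397.2, 431.5 and 412.2 CPM in KO. Neither pair of groups overlapped, but the log2 fold changes of 0.22 (edgeR adjusted p = 0.0701) and 0.19 (edgeR adjusted p = 0.112) did not pass. Without KO library 1 both passed, with adjusted p of 0.00669 and 0.014 in edgeR, and after the length and GC correction they were 0.08 and 0.01. Trib3, a pseudokinase induced by ATF4 and CHOP, gave 0.23 with overlapping groups and did not pass; without WT library 2 it did (edgeR adjusted p = 0.0491). The log2 median of the 7 genes moved from 0.19 to 0.01 with the correction, which left 1 of them called (Ern1).

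The cytosolic heat shock genes include constitutive and inducible Hsp70s, the Hsp90 pair, their J-domain and exchange partners, and the regulator HSF1. Of the 11, 4 fell, 1 rose and 6 did not pass, with a median log2 fold change of -0.19. The share called, 45.5%, stood beside 29.0% of all genes and 42.5% of those of at least 50 CPM, a level that 7 of the 11 reach. Without KO library 2 or without KO library 3 the number called was 2, beside 19.5% or 10.2% of all genes. Hsp90ab1, on chr17:45567775-45573271, encodes the constitutive Hsp90 that stabilises steroid receptors and kinases, and was the second most abundant member per transcript length, at 2676 CPM per kilobase in WT. It measured 6780, 6440, 6830 and 6929 CPM in WT and 6258, 4497 and 4830 CPM in KO. KO library 1 lay just under the WT range and the other two far below. The log2 fold change was -0.38 (SE 0.107, edgeR adjusted p = 0.0157) and -0.44 after the correction. Leaving out KO library 2 or 3 took the adjusted p to 0.0912 or 0.0946 in edgeR. Its inducible paralogue Hsp90aa1 was 959.2 ± 153 CPM (SD, n = 4) in WT and 804.4 ± 42.1 CPM (SD, n = 3) in KO, with overlapping groups and a log2 fold change of -0.25 that did not pass. The ratio of Hsp90aa1 to Hsp90ab1 was 0.142 ± 0.0203 in WT and 0.159 ± 0.0323 in KO, a difference within the spread (2-sided exact permutation p = 0.429).

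Both exchange factors of Hsp70 fell. Hsph1, the gene of Hsp110, measured 166.1, 159.4, 174.8 and 175.2 CPM in WT and 141.0, 107.8 and 104.2 CPM in KO, a log2 fold change of -0.52 (SE 0.105, edgeR adjusted p = 0.00236). Hspa4, of the same family, measured 531.3, 464.8, 623.3 and 578.0 CPM in WT and 425.7, 408.4 and 389.0 CPM in KO, a log2 fold change of -0.43 (SE 0.102, edgeR adjusted p = 0.00592). Neither gene's groups overlapped, and both calls held after the correction, at -0.32 and -0.23.

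Of the Hsp70s they serve, 1 of 3 was called. Hspa8, the constitutive Hsc70, measured 5403, 5891, 5584 and 6005 CPM in WT and 6124, 6128 and 6371 CPM in KO. The KO libraries all lay above, but the log2 fold change of 0.12 (edgeR adjusted p = 0.324) did not pass. The heat-inducible Hsp70 genes were near silent by comparison, Hspa1a at 0.639 ± 0.179 CPM (SD, n = 4) and Hspa1b at 4.95 ± 1.01 CPM (SD, n = 4) in WT. For Hspa1a, with 15 to 49 counts per library, the log2 fold change was 0.10 with an SE of 0.411, and its sign turned without WT library 3 (-0.07) or KO library 2 (-0.34). Hspa1b held 4.46, 6.35, 4.94 and 4.03 CPM in WT and 3.90, 3.34 and 3.45 CPM in KO, without overlap, and was called at -0.48 (SE 0.175, edgeR adjusted p = 0.0492). That call was lost in 5 of the 7 fits leaving out a library, that is without WT library 1, 2 or 3 and without KO library 2 or 3, where the adjusted p in edgeR was 0.0669 to 0.192. It was also lost with median-of-ratios size factors (0.052), library totals (0.0671), DESeq2 (0.0611), voom (0.0717) and no robust estimation (0.0519), and kept with the length and GC correction (0.0192). The 2 genes share long stretches of sequence: 48.6% of 100-base windows in the transcript of Hspa1a and 49.9% in that of Hspa1b also occur in another gene, so reads may have been split between them.

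Hspb1, which encodes the small heat shock protein Hsp27 (also called Hsp25 in mouse), was the cytosolic member that rose. It held 27.02, 28.63, 27.13 and 27.03 CPM in WT and 31.26, 40.04 and 34.7 CPM in KO, all KO above WT. The log2 fold change was 0.36 (SE 0.0998, edgeR adjusted p = 0.0129), but 0.08 after the correction (edgeR adjusted p = 0.486). Without KO library 2 or 3 the adjusted p in edgeR was 0.0697 or 0.0502. A pseudogene, Hsp25-ps1, shares 42.7% of its windows. Of the J-domain partners, Dnaja1 gave -0.19 and Dnajb1, an HSF1 target, gave 0.17, and neither passed. Dnaja1 turned to 0.06 after the correction, and Dnajb1 passed without KO library 1 (edgeR adjusted p = 0.0176). Dnaja1 overlaps Smu1 on the opposite strand, which had 55363 counts in all against 100653 for Dnaja1, so its value carries that uncertainty. Hsf1 was 42.9 ± 2.8 CPM (SD, n = 4) in WT and 40.8 ± 0.358 CPM (SD, n = 3) in KO, with a log2 fold change of -0.07 that did not pass.

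In all, 7 members shared at least 10% of their windows with another gene, the others being Hspa8, Hsp90aa1, Hspd1 and Dnaja1, and 27 shared none. The sources used here do not give how reads common to such genes were assigned.

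The mitochondrial chaperonin pair is of interest because the 2 genes lie head to head and share a promoter. Hspd1 (chr1:55077835-55088243, minus strand) encodes Hsp60, the barrel that folds imported proteins, and Hspe1 (chr1:55088132-55091307, plus strand) encodes Hsp10, its lid. Before the RefSeq start of each gene, in a stretch that an annotated exon of Hspd1 also covers, lies a heat shock element. Its letters, GAANNTTCNNGAA on either strand, occur in 0.603% of all promoters; Hsph1 was the only other member with a match, in its first exon. The shared site is printed because it belongs to both genes, once along each strand, with 2 overlapping matches in capitals.
Hspd1, chr1:55088059-55088076, minus strand: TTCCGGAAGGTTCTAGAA
Hspe1, chr1:55088059-55088076, plus strand: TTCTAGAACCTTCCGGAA

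Hspd1 measured 655.3, 626.8, 740.9 and 699.1 CPM in WT and 543.6, 496.2 and 481.0 CPM in KO, with all KO libraries below. Hspe1 measured 362.0, 381.8, 386.1 and 372.8 CPM in WT and 401.1, 463.1 and 439.0 CPM in KO, with all KO libraries above. The log2 fold change of Hspd1 was -0.42 (SE 0.0923, edgeR adjusted p = 0.00373). Hspe1 gave 0.21 and did not pass (edgeR adjusted p = 0.0764); without KO library 1 it did (0.00256). The ratio of Hspd1 to Hspe1 was 1.81, 1.64, 1.92 and 1.88 in WT and 1.36, 1.07 and 1.10 in KO. These did not overlap (2-sided exact permutation p = 0.0286, the smallest that the 35 groupings of 7 libraries allow, and 0.0571 adjusted over the 2 ratios tested). After the length and GC correction Hspd1 was -0.46 and Hspe1 0.02. The Hspe1 transcript is short, 964 bases against 2423 for Hspd1, the 2 genes overlap on opposite strands, and 26.9% of the windows of Hspd1 occur in other genes, mostly the pseudogene Hspd1-ps3. The part of these features in the split was not tested.

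Summed mRNA levels of these genes are set here beside those of collagen chains. Neither folding load nor secretion was measured. The 16 ER members summed to 15004 to 16134 CPM in WT and 13544 to 13987 CPM in KO, 88.3% of WT, without overlap. Calr, which was not called, averaged 6950 CPM of this in WT and 6076 CPM in KO. The 11 cytosolic members summed to 14247 to 15131 CPM and 12511 to 14205 CPM, or 90.2%, where KO library 1, the highest of the KO libraries, came close to the lowest WT library. Hsp90ab1 alone averaged 6745 CPM in WT and 5195 CPM in KO. The 7 UPR genes summed to 778.1 to 812.3 CPM and 827.3 to 843.5 CPM, or 105%. Most of that sum was Atf4 (363.2 CPM on average in WT, 413.6 in KO) and Xbp1 (222.3 and 258.0 CPM), neither called. All sums here are of CPM without the length and GC correction. With it, the log2 fold changes of Atf4 and Xbp1 were 0.01 and 0.08. The 11 collagen chains, major secretory clients of the ER, summed to 6722 to 7286 CPM in WT and 3101 to 5081 CPM in KO, 59.2% of WT. The collagen sum was thus a smaller share of its WT level than the ER sum was, a difference that was not tested. In bulk RNA, fewer cells of a type and less RNA per cell cannot be told apart.

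**Figure D4:**
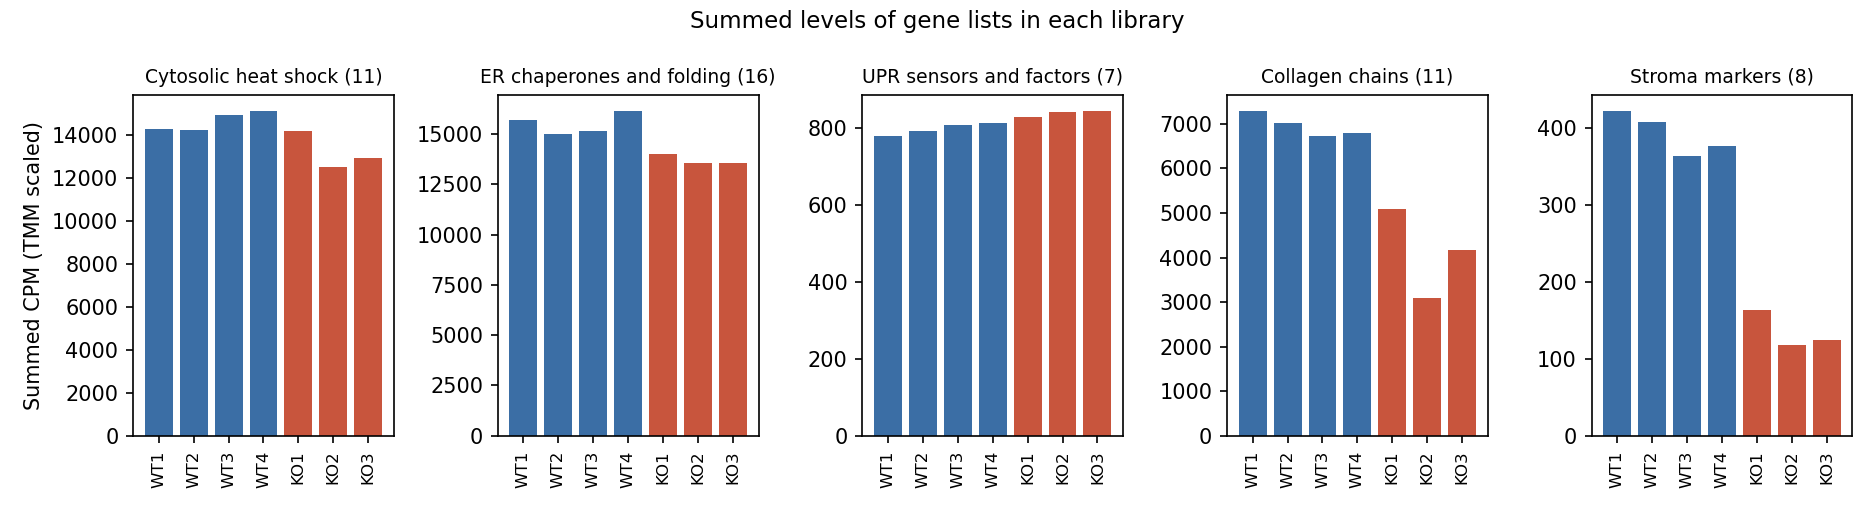
Summed CPM of 3 groups of members, of 11 collagen chains and of 8 stroma markers in each library, WT in blue and KO in red, with each axis starting at 0. The ER sum is lower in all KO libraries (13544 to 13987 against 15004 to 16134 CPM), as are the collagen sum (3101 to 5081 against 6722 to 7286 CPM) and the stroma sum (117.9 to 163.1 against 363.8 to 421.7 CPM). Col1a1, Col1a2 and Col3a1 are counted in both the collagen and the stroma sum, and make up most of the stroma sum.

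Of 31 genes for collagens, other matrix clients and collagen folding, 20 fell and none rose, with a median log2 fold change of -0.52. The share lower, 64.5%, stood beside 15.6% of all genes and 23.5% of those of at least 50 CPM. The list was chosen with earlier results of these data known, so this share is a description only. After the length and GC correction 21 were lower and 1 higher. The 4 with the smallest p were Col1a1 (-1.57), Col3a1 (-1.50), Nid1 (-1.25) and Col1a2 (-1.72). Named after their values were seen, Col4a1, a basement membrane collagen and the most abundant chain by CPM, went from 2770 to 1835 CPM, and Serpinh1, the collagen chaperone HSP47, from 1413 to 1306 CPM, a log2 fold change of -0.11 that did not pass (-0.28 after the correction, edgeR adjusted p = 0.00737). Among markers of stroma and fibroblasts, Col1a1, Col1a2 and Col3a1 belong to this list too, so the marker sum largely repeats it. These collagens averaged 72.7, 91.7 and 220.6 CPM in WT, of a marker sum of 392.6 CPM. In KO they averaged 24.5, 27.9 and 78.1 CPM, of a sum of 135.2 CPM. Of the 8 stroma markers, 7 were tested, 4 fell, these collagens among them, and none rose. None was at 0 in all libraries, and the marker sum was 363.8 to 421.7 CPM in WT and 117.9 to 163.1 CPM in KO. Smooth muscle and pericyte markers summed to 883.1 to 977.3 CPM in WT and 467.3 to 545.1 CPM in KO, with 4 of 7 tested lower and Rgs5 at 0 throughout. Surface epithelium markers went the other way, from 109.9 to 126.6 CPM summed in WT to 139.9 to 182.6 CPM in KO, with 5 of 8 higher. Theca and interstitial markers summed to 6087 to 6697 CPM in WT and 7713 to 8193 CPM in KO, of which Aldh1a1 alone made up 6408 and 7946 CPM on average; 3 of 6 were tested, 1 rose and 2 fell. Granulosa markers summed to 4426 to 5086 CPM in WT and 3931 to 4777 CPM in KO, with 2 higher and 4 lower of 9 tested. Immediate early genes, which respond to handling, summed to 5470 to 7297 CPM in WT and 6078 to 6763 CPM in KO, with 4 higher and 1 lower of 12. Lung epithelium markers summed to 0.128 to 0.418 CPM in WT. In KO libraries 1, 2 and 3 they summed to 10.7, 25.3 and 1.16 CPM. Of 3 tested, 2 were higher, and the median log2 fold change was 5.88. Endothelial markers (1.69 to 2.57 CPM in WT) and immune markers (21.5 to 23.0 CPM in WT, Cd3e at 0 throughout) held no call. The part of these cells in the chaperone changes was not tested.

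Of 40 other cytosolic chaperones, 6 rose and 4 fell, 25% called beside 29.0% of all genes, with a median log2 fold change of 0.03. After the length and GC correction more were called, 9 higher and 7 lower, beside 12.3% higher and 11.4% lower of all genes. The 4 with the smallest p were Cct8 (0.41, edgeR adjusted p = 0.00571), Hspa12a (-0.62), St13 (-0.46) and Hspb8 (0.45). Cct8 is a subunit of the TRiC chaperonin that folds actin and tubulin, and of the 8 subunits, looked at as a subset after the values were seen, 4 rose (Cct4, Cct5, Cct7 and Cct8) and 4 did not pass (-0.19 to 0.21). After the correction 5 were higher and 1 lower (Cct6a, -0.22). St13 encodes Hip, a cofactor of Hsc70. Of 13 other mitochondrial chaperones and proteases, 1 rose (Clpp, 0.35, and 0.05 after the correction) and none fell. Grpel1, Trap1 and Htra2, next by p, gave 0.20, 0.16 and 0.18 and did not pass. After the correction 2 of the 13 were higher, Grpel1 (0.29) among them, and none was lower.

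Of 60 other ER genes tested, 10 rose and 5 fell, again 25% called beside 29.0% of all genes, with a median log2 fold change of 0.03. After the correction 11 were higher and 3 lower. The 4 with the smallest p were Spcs1 (0.58, edgeR adjusted p = 0.000746), Sec11a (0.41), Ostc (0.44) and Sec63 (-0.41). SPCS1 and SEC11A belong to the signal peptidase, OSTC to the oligosaccharyltransferase, and SEC63 to the translocon as a J-domain partner of BiP. Spcs1, Sec11a and Ostc kept the call after the correction, and Sec63 did not (-0.11). Named after their values were seen, Uggt1, the folding sensor that returns glycoproteins to calnexin and calreticulin, fell by 0.52 but was -0.12 after the correction, while Derl1 (0.37) and Derl2 (0.32), which encode derlins of the retrotranslocation machinery, rose and kept the call.

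Other regulators of the UPR, 22 tested, included 3 that rose and 4 that fell, 31.8% called beside 29.0% of all genes. After the length and GC correction 3 were higher and 2 lower. Creb3 (0.59, edgeR adjusted p = 0.000521) and Creb3l1 (-0.37, edgeR adjusted p = 0.00576), which encode membrane-bound transcription factors related to ATF6, moved in opposite directions, and both kept the call after the correction. Ppp1r15a, the gene of GADD34 that reverses eIF2α phosphorylation, rose by 0.32, and Eif2ak2, the gene of the eIF2α kinase PKR, fell by 0.43 with overlapping groups. After the correction Ppp1r15a was 0.21 and still called, and Eif2ak2 was -0.27 and was not (edgeR adjusted p = 0.0506).

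Targets of ATF4 went mostly down where they moved. All 40 were tested, and 12 were lower, 2 higher and 26 not past the threshold, with a median log2 fold change of -0.05, and after the correction the counts were again 12 and 2, with a median of -0.15. The share called, 35%, stood beside 29.0% of all genes. By direction 30% were lower and 5% higher, beside 15.6% and 13.5% of all genes, and 23.5% and 19.0% of those of at least 50 CPM. The 4 with the smallest p were Cth (-0.83), Cebpb (0.62), Slc7a1 (-0.57) and Vldlr (-0.55). Cth encodes cystathionine gamma-lyase, Slc7a1 a cationic amino acid transporter and Cebpb a partner of ATF4, and Vldlr lost its call after the correction (-0.17). Of the 11 aminoacyl-tRNA synthetase genes in the list, a subset looked at after the values were seen, 5 fell (Nars, Eprs, Tars, Iars and Lars, from -0.52 to -0.35) and 6 did not pass (-0.01 to 0.12). After the correction 4 of the 5 were still called, and Tars was not (-0.21). Asns, Sesn2 and Chac1, common readouts of ATF4 activity also named after their values were seen, gave 0.01, 0.02 and -0.05 and did not pass.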

How the data were processed

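The deposited values were counts, whole-number reads per gene symbol in 1 column per library, not normalized by the authors. Per the submitters' processing notes, which give no role or order, the build was mm10 and the tools included featureCounts 1.6.4, HISAT2 2.2.1 with DESeq2 1.28.1, Cufflinks 2.2.1, SAMtools and fastp. The sources used here do not give the counting's strand setting or gene annotation, although the mRNA kit was a stranded one, per the labels' protocols. In 26 rows, with 0.172% of counts, a gene name had become a date; they were kept in library totals.

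The test was that of edgeR 4.0.16 under R 4.3.3 (filterByExpr at a minimum count of 10, TMM, robust glmQLFit, glmQLFTest; genotype as the only term), with Benjamini-Hochberg adjustment over the 15798 genes tested. SEs were derived from the F statistic. Untested genes held 0.0511% of counts. The length and GC correction entered as an offset each library's trend of log2 CPM on the longest GENCODE M21 transcript's length and GC (natural splines, 4 degrees of freedom, genes above 1 CPM); 15596 genes (98.7%), all 36 members included, had both values. Levels per kilobase use the same length. Gene coordinates are 1-based, GENCODE M21. The check for duplicated libraries gave a chi-square per degree of freedom of at least 10.4 within groups. Floors cover counting error only. The steps were tested on simulated counts.

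Alternatives were median-of-ratios size factors, library totals, DESeq2 1.42.0, limma 3.58.1 voom with quality weights, other filters, no robust estimation, a replicate block, length alone, and each library left out. All 36 members, and up to 4 genes with the smallest p in each wider list, were named by rule. The members, lists and tests were chosen with earlier results of these data known.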

Additional observations from a re-analysis of the deposited data

Results flagged for a closer look

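In each gene's 4 WT libraries, a library standing far from the other three was looked for among the 36 members, and 2 such values were found; chance flags about 1 in 20 groups. Hspb1 in WT library 2 measured 28.6 CPM against 27.0 to 27.1 CPM in the others, a value still below the lowest KO library. Sdf2l1 in WT library 3 measured 37.1 CPM against 42.5 CPM in each of the others, close to KO library 1.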

How the results depend on the processing

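Of 15 members called, limma voom with quality weights gave 23, KO library 1 alone 1, and leaving out a library 7 to 24. Cytosolic genes (5) gave 0 with KO library 1 alone and 2 to 6 leaving out a library. ER genes (6) gave 10 with voom, 0 with KO library 1 alone, and 2 to 10 leaving out a library. UPR genes (3) gave 6 with voom, 1 with KO library 1 alone, 1 with the length and GC correction, 0 with length alone, and 2 to 6 leaving out a library. Replicate numbers did not pair the libraries (correlations of deviations 0.0449, 0.00191 and -0.0496). With the replicate block, 10 members were called, 3 of them ER and 2 UPR genes, against 12, 4 and 2 in the same 6 libraries with no block. Length alone called 10 members. Signs turned as follows on the log2 scale, and the cause was not tested. With KO library 1 alone: Hspa1a -0.741, Dnajb9 -0.107, Sdf2l1 -0.18, Pdia4 0.0756, P4hb -0.10, Creld2 -0.0216 and Manf -0.0413. With the length and GC correction: Dnaja1 0.0595, Sdf2l1 -0.26, P4hb -0.0039 and Creld2 -0.128. With length alone: Dnaja1 0.0587, Hspe1 -0.0293, Sdf2l1 -0.209 and Creld2 -0.0916. Leaving out each library in turn, the log2 values ran from -0.341 to 0.394 for Hspa1a, -0.0228 to 0.209 for Dnajb9, -0.026 to 0.13 for Sdf2l1 and -5.34e-06 to 0.166 for P4hb. The counts of Hspa1a are too few for a direction. Genes outside the 36 were recomputed only with the correction and with KO library 1 alone.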
